A study of Mus musculus with 18 samples.

Results

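The 39 genes described here carry out or drive DNA replication in S phase: origin licensing, the replicative helicase, the sliding clamp and its loader, the DNA polymerases, lagging strand processing, nucleotide supply, the E2F and cyclin E switch, and the chromatin of new DNA. They were picked by gene symbol for these known roles, and all 39 were found among the 20612 genes of the table. Their levels were read in 18 RNA-seq libraries of mouse muscle stem cells (MuSCs) and of the muscle cells made from them.

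The mice were semi-cloned (SC) and 4 months old at sampling; such mice are made by injecting androgenetic haploid embryonic stem cells into oocytes. TKO mice carried heterozygous mutations of Dmpk, Six5 and Mbnl1, QKO mice carried the same mutations plus one of Dmwd, and WT SC mice carried none of these. All of the mice, WT included, descend from a haploid stem cell line that lacks the H19-DMR and the IG-DMR, regions that control imprinted genes. The edited haploid lines are single clones, and the clone behind each mutant mouse was not stated. Both mutants model the loss of gene dosage in myotonic dystrophy type 1 (DM1) and were labelled C57BL/6, as were the WT mice. The label does not give the whole background, since the paper states that the oocytes came from hybrid females of C57BL/6 and DBA/2. Day 0 cells were MuSCs grown on collagen in the medium named T cell conditional, which keeps them dividing, and by day 1 and day 2 the cells had spent that long in differentiation medium with horse serum. Each genotype and day had 2 libraries. The labels do not say whether these are separate animals or cultures, so p-values measure the spread between the libraries, which may be technical.

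DNA replication starts in G1, when the origin recognition complex, CDC6 and CDT1 load the ring-shaped MCM helicase onto origins. At the start of S phase CDC45 and the GINS complex join the MCM ring to make the active helicase, and the polymerases copy the opened strands while the PCNA clamp holds them on the template. E2F transcription factors, released from the retinoblastoma family when cyclin E and cyclin D kinases are active, switch on most of these genes together, and muscle cells leave the cell cycle for good as they differentiate.

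Read depth, recovered from the smallest steps of the values, was 36.6 to 69.5 M reads per library. Values are RPKM, the reads of a gene set against its length in kilobases and the depth in M reads. The second WT library at day 0 stood apart, with an RPKM total of 555791 against 370850 to 428739 in the other libraries and a shift towards short genes. Of the targeted genes, Dmpk stood at 196 to 203 RPKM in TKO and 145 to 146 RPKM in QKO, against 237 to 341 RPKM in WT, and Dmwd at 28.7 to 38.2 RPKM in QKO, against 64.8 to 81.1 RPKM in WT, all at day 0. In TKO, where Dmwd is not among the mutations, it was also below WT that day, at 55.5 to 60.7 RPKM. Six5 was low in every library and below WT at day 0, at 1.36 to 1.59 RPKM in TKO and 1.25 to 1.57 RPKM in QKO, against 2.26 to 3.39 RPKM in WT, and at day 1 the mutants overlapped WT. Mbnl1 did not separate the genotypes at day 0, at 16.9 to 21.0 RPKM in TKO, 12.1 to 17.1 RPKM in QKO and 7.23 to 18.9 RPKM in WT; the mutation removes 1 exon, which a value over the whole gene need not show. The 8 MuSC and myoblast markers summed to 1192 to 2690 RPKM in every library, while 8 immune markers summed to at most 6.10 RPKM and 5 endothelial markers to at most 2.02 RPKM. Of 7 fibroblast markers, 5 stayed under 1 RPKM in every library, among them Pdgfra, Dcn and Lum. Thy1 and Col3a1 did not, and the 7 summed to 7.47 to 118 RPKM. At day 0 that sum was 94.2 to 94.7 RPKM in TKO and 89.7 to 118 RPKM in QKO, against 32.5 to 32.8 RPKM in WT.

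**Figure D1:**
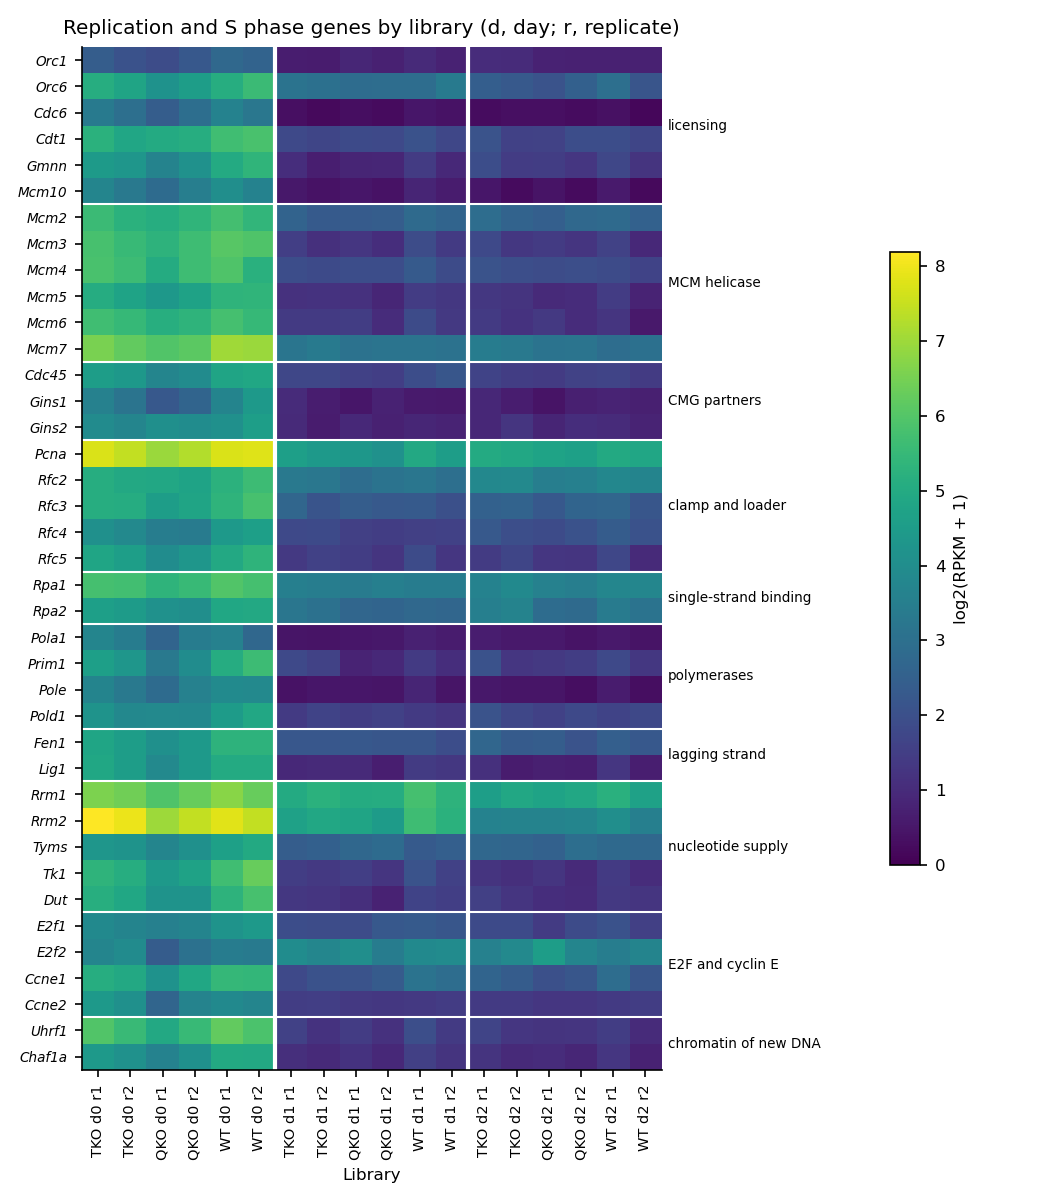
Level of each of the 39 genes (rows, grouped by role) in each of the 18 libraries (columns, by day, then TKO, QKO and WT), as log2(RPKM + 1). In 38 of the 39 genes all 6 day 0 libraries lie above all 12 later libraries, and E2f2 is the exception.

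The replication genes were at their highest in the expanding cells and dropped together within 1 day of differentiation, in every genotype. At day 1 against day 0, 38 of 39 genes fell in TKO, 38 in QKO and 38 in WT, while 42.1%, 42.4% and 46.1% of the 11890 genes tested fell in TKO, QKO and WT. The median log2 change of the 39 genes was -3.04 in TKO, -2.58 in QKO and -3.23 in WT, beside -0.31, -0.32 and -0.34 over all genes tested. After median-ratio scaling the median over all genes was -0.01 in TKO, -0.01 in QKO and -0.02 in WT, and 27.9%, 28.0% and 32.0% of all genes fell while 26.7%, 26.4% and 30.7% rose. The same 38 members were still called lower in each genotype on that scale, with medians of -2.71 in TKO, -2.29 in QKO and -2.87 in WT. E2f2 was the exception in each genotype, and its change was past the threshold, upwards, in QKO only (15.8% of all genes rose in TKO, 15.4% in QKO and 20.4% in WT). In WT it also passed after quantile normalization, median-ratio scaling or removal of the length trend and by voom on recovered reads. At day 2 against day 0 the counts of lower members were again 38 in each genotype, where 38.2% of all genes fell in TKO, 42.9% in QKO and 41.7% in WT, or 29.5%, 29.7% and 32.5% after median-ratio scaling. The test was limma on log2(RPKM + 1) with Benjamini-Hochberg adjustment over all genes tested, at 0.05. In bulk RNA, fewer cycling cells and less RNA per cycling cell cannot be told apart.

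Among the licensing genes, Cdt1, the loading factor that is destroyed once S phase begins, had 36.7 and 27.8 RPKM at day 0, 2.51 and 2.28 RPKM at day 1 and 3.27 and 2.01 RPKM at day 2 in TKO, 31.0 and 33.5 RPKM at day 0, 2.54 and 2.48 RPKM at day 1 and 2.06 and 2.84 RPKM at day 2 in QKO, and 50.2 and 56.0 RPKM at day 0, 3.19 and 2.36 RPKM at day 1 and 2.84 and 2.30 RPKM at day 2 in WT. Its level in the 12 later libraries never came near that of the 6 day 0 libraries, and the log2 change at day 2 against day 0 was -3.20 in TKO, -3.28 in QKO and -3.92 in WT. All 6 licensing genes fell in WT at day 2 against day 0 (41.7% of all genes). Cdc6, named after its values were seen, was left at 2.50% of its day 0 mean at day 1 in TKO, the smallest share of any member in TKO that day.

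Mcm7, a subunit of the helicase ring, had 92.9 and 74.1 RPKM at day 0, 8.16 and 9.23 RPKM at day 1 and 9.88 and 8.82 RPKM at day 2 in TKO, 62.0 and 69.4 RPKM at day 0, 7.59 and 7.86 RPKM at day 1 and 7.68 and 7.81 RPKM at day 2 in QKO, and 128 and 122 RPKM at day 0, 7.85 and 7.52 RPKM at day 1 and 6.54 and 7.06 RPKM at day 2 in WT. The day 0 values are all far above the later ones. Mcm3, another subunit, was among the members with the largest fall in every genotype, with 55.4 and 44.4 RPKM at day 0, 1.85 and 1.17 RPKM at day 1 and 2.50 and 1.48 RPKM at day 2 in TKO, 38.3 and 48.8 RPKM at day 0, 1.48 and 1.11 RPKM at day 1 and 1.67 and 1.41 RPKM at day 2 in QKO, and 65.9 and 60.7 RPKM at day 0, 2.76 and 1.61 RPKM at day 1 and 2.07 and 0.903 RPKM at day 2 in WT. Its log2 change at day 1 against day 0 was -4.35 ± 0.26, adjusted p = 2.4e-08 in TKO, -4.28 ± 0.26, adjusted p = 2.6e-08 in QKO and -4.36 ± 0.26, adjusted p = 9.6e-09 in WT. Mcm6, also of the ring, reached -4.29 ± 0.24 in TKO, -4.03 ± 0.24 in QKO and -4.72 ± 0.24 in WT at day 2 against day 0. In WT its mean at day 2 was 1.94% of the day 0 mean, the smallest share of any member there.

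Cdc45, which turns the loaded ring into the active helicase, had 22.8 and 19.7 RPKM at day 0, 2.37 and 2.37 RPKM at day 1 and 2.11 and 1.80 RPKM at day 2 in TKO, 12.1 and 14.5 RPKM at day 0, 1.99 and 1.88 RPKM at day 1 and 1.67 and 2.06 RPKM at day 2 in QKO, and 26.2 and 28.3 RPKM at day 0, 2.82 and 3.55 RPKM at day 1 and 2.21 and 1.66 RPKM at day 2 in WT. The 3 members among the genes whose products join the ring, Cdc45, Gins1 and Gins2, fell in WT at day 2 by 3.27 to 3.43 on the log2 scale. More than 1 row of the table carries the symbol Cdc45 with near-identical values, and the highest one was used.

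Pcna, the sliding clamp, had 209 and 174 RPKM at day 0, 23.6 and 20.2 RPKM at day 1 and 31.1 and 29.4 RPKM at day 2 in TKO, 122 and 151 RPKM at day 0, 19.0 and 16.6 RPKM at day 1 and 26.0 and 24.1 RPKM at day 2 in QKO, and 212 and 221 RPKM at day 0, 29.7 and 22.5 RPKM at day 1 and 30.6 and 27.6 RPKM at day 2 in WT. It stayed well above most members throughout. Per kilobase it was still at 16.6 to 31.1 RPKM after day 0, where Cdc6, Mcm10, Pola1 and Pole were all far lower. The loader subunits Rfc2, Rfc3, Rfc4 and Rfc5 fell as well in every genotype. Rpa1, the large subunit of the single-strand binding protein, had 53.9 and 51.9 RPKM at day 0, 10.5 and 10.1 RPKM at day 1 and 11.5 and 13.8 RPKM at day 2 in TKO, 38.7 and 44.4 RPKM at day 0, 9.69 and 10.7 RPKM at day 1 and 11.0 and 10.5 RPKM at day 2 in QKO, and 61.3 and 54.2 RPKM at day 0, 9.90 and 9.73 RPKM at day 1 and 12.5 and 12.5 RPKM at day 2 in WT. The RPA genes kept more of their level than most, and log2 changes of Rpa1 at day 2 were -1.99 in TKO, -1.85 in QKO and -2.12 in WT.

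Prim1, the primase subunit that makes RNA primers, had 23.4 and 18.7 RPKM at day 0, 2.52 and 2.05 RPKM at day 1 and 3.14 and 1.45 RPKM at day 2 in TKO, 8.88 and 14.7 RPKM at day 0, 0.770 and 0.906 RPKM at day 1 and 1.54 and 1.79 RPKM at day 2 in QKO, and 32.8 and 47.8 RPKM at day 0, 1.62 and 1.10 RPKM at day 1 and 2.50 and 1.50 RPKM at day 2 in WT. Its WT fall at day 1 was -4.11 ± 0.28 on the log2 scale. Fen1, the nuclease that trims primers from the lagging strand, had 27.2 and 22.5 RPKM at day 0, 3.68 and 3.62 RPKM at day 1 and 5.56 and 4.06 RPKM at day 2 in TKO, 16.4 and 20.5 RPKM at day 0, 3.78 and 3.53 RPKM at day 1 and 4.34 and 3.31 RPKM at day 2 in QKO, and 37.9 and 38.0 RPKM at day 0, 3.52 and 2.81 RPKM at day 1 and 4.62 and 3.73 RPKM at day 2 in WT. Both groups of later libraries lie below every day 0 library for these genes.

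Rrm2, the S phase subunit of ribonucleotide reductase, was per kilobase the most abundant member in both mutants at day 0, with 291 and 249 RPKM at day 0, 24.9 and 29.3 RPKM at day 1 and 11.4 and 11.7 RPKM at day 2 in TKO, 125 and 173 RPKM at day 0, 26.5 and 21.3 RPKM at day 1 and 11.6 and 12.1 RPKM at day 2 in QKO, and 223 and 173 RPKM at day 0, 49.2 and 36.4 RPKM at day 1 and 15.7 and 10.6 RPKM at day 2 in WT. Unlike most members it dropped further after day 1. At day 2 against day 1 it fell by 1.16 in TKO (SE 0.22, adjusted p = 0.0082), by 0.95 in QKO (SE 0.22, adjusted p = 0.033) and by 1.64 in WT (SE 0.22, adjusted p = 0.00057) on the log2 scale. In WT it was the single member called in that step under each of the 18 fits that left out 1 library. Rrm1, the partner subunit, was named after its values were seen. It kept 37.8% of its day 0 mean at day 1 in TKO, 47.2% in QKO and 50.1% in WT, more than any other member but E2f2. Thymidine kinase Tk1, which recycles thymidine, fell by 4.76 in WT at day 2 against day 0 (SE 0.22, adjusted p = 1.4e-09).

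Ccne1, a cyclin that drives entry into S phase, had 33.4 and 30.0 RPKM at day 0, 2.48 and 3.16 RPKM at day 1 and 5.27 and 4.17 RPKM at day 2 in TKO, 17.2 and 28.2 RPKM at day 0, 3.30 and 4.12 RPKM at day 1 and 3.02 and 3.62 RPKM at day 2 in QKO, and 43.0 and 42.2 RPKM at day 0, 7.69 and 6.57 RPKM at day 1 and 6.56 and 3.53 RPKM at day 2 in WT. Its log2 change at day 2 against day 0 was -2.52 in TKO, -2.42 in QKO and -2.90 in WT. E2f2, an E2F activator, was the exception throughout, with 12.4 and 14.4 RPKM at day 0, 14.7 and 12.7 RPKM at day 1 and 11.1 and 13.3 RPKM at day 2 in TKO, 4.26 and 7.24 RPKM at day 0, 15.4 and 9.91 RPKM at day 1 and 22.4 and 12.2 RPKM at day 2 in QKO, and 9.79 and 9.25 RPKM at day 0, 13.9 and 14.6 RPKM at day 1 and 10.2 and 11.9 RPKM at day 2 in WT. At day 0 the TKO libraries were the highest and the QKO libraries the lowest, at day 1 the genotypes overlapped, and at day 2 both QKO libraries were above both WT libraries. The log2 change of E2f2 at day 1 against day 0 was 0.03 ± 0.27, adjusted p = 0.93 in TKO, 1.02 ± 0.27, adjusted p = 0.0049 in QKO and 0.53 ± 0.27, adjusted p = 0.093 in WT. The QKO call was lost without QKO day 0 replicate 1 (0.70) or QKO day 1 replicate 1 (0.73). At day 2 against day 0 E2f2 rose again in QKO, by 1.42 ± 0.27, adjusted p = 0.00043. Uhrf1, which keeps DNA methylation through replication, had 61.1 and 45.6 RPKM at day 0, 2.02 and 1.30 RPKM at day 1 and 2.18 and 1.46 RPKM at day 2 in TKO, 29.5 and 45.2 RPKM at day 0, 1.73 and 1.25 RPKM at day 1 and 1.33 and 1.41 RPKM at day 2 in QKO, and 73.0 and 57.3 RPKM at day 0, 2.91 and 1.65 RPKM at day 1 and 1.82 and 0.995 RPKM at day 2 in WT. On the log2(RPKM + 1) scale Uhrf1 had the largest WT fall of all members at day 2, -4.79 ± 0.27, adjusted p = 4.5e-09. By the share of the day 0 mean RPKM left in WT, Mcm6 (1.94%), Cdc6 (1.97%) and Tk1 (2.12%) were under Uhrf1 (2.16%).

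**Figure D2:**
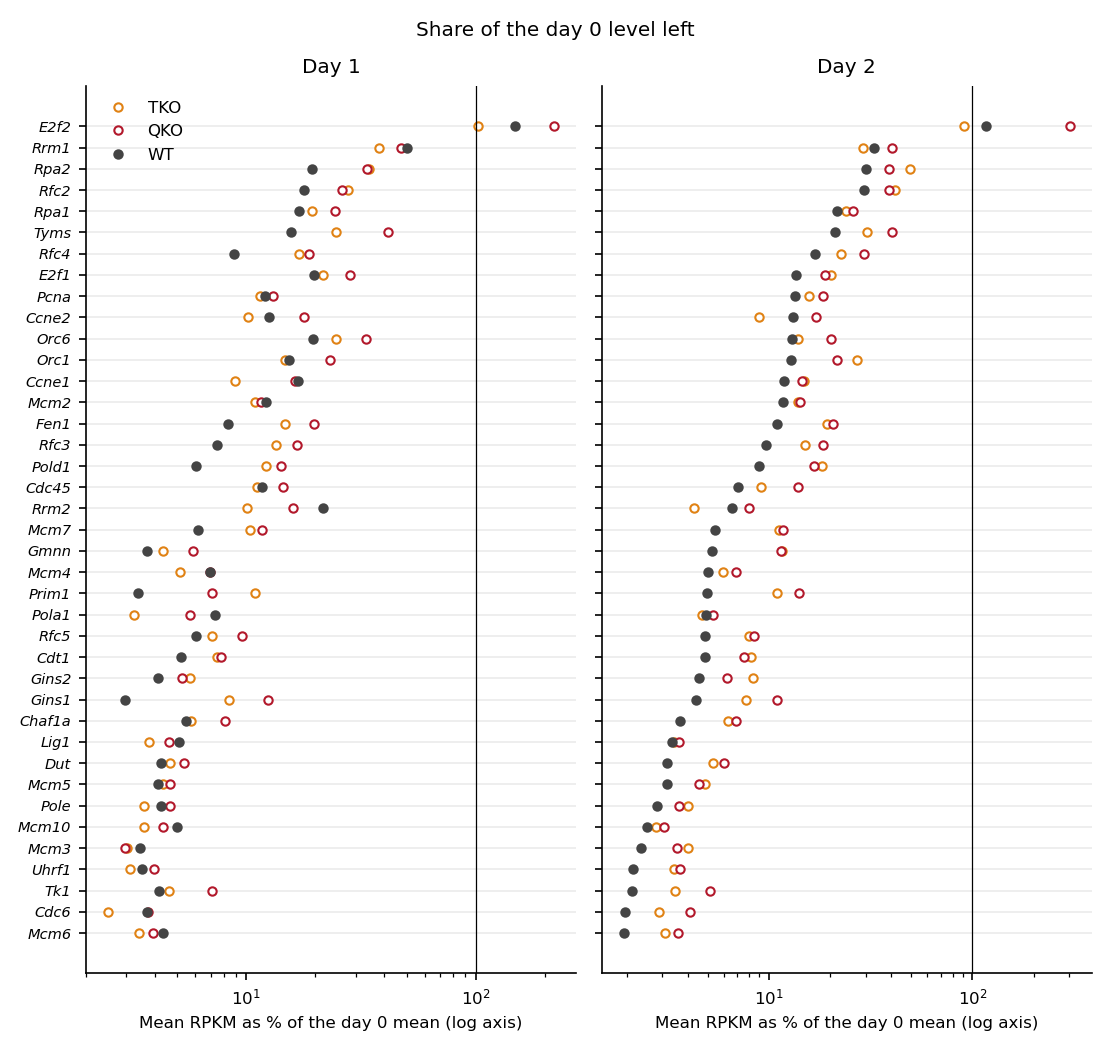
Mean RPKM of each gene at day 1 (left) and day 2 (right) as a percent of its own day 0 mean, on a log axis, in TKO and QKO (open circles) and WT (filled circles). The median gene kept 9.20% in TKO, 11.8% in QKO and 5.43% in WT at day 2, and E2f2 sits far to the right in each genotype.

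Between day 1 and day 2 few members moved. In TKO 3 members were called (6.62% of all genes in either direction): Rrm2 fell, and Rfc2 and Rpa2 rose by 0.54 and 0.48 on the log2 scale. In QKO only Rrm2 was called (3.04% of all genes). In WT 5 members were called (15.4% of all genes): Rrm2 and Cdc45 fell, Cdc45 with a log2 change of -0.51, and Rfc4, Rfc2 and Rpa2 rose by 0.66, 0.66 and 0.54. With the replicate number as a block within each genotype, an alternative added after the data were seen, the TKO count was 1 (Rrm2), the QKO count 1 and the WT count 7. These counts rest on single libraries: the TKO count was 0 without any 1 of the 4 TKO libraries of day 1 and day 2 and 1 without either TKO library of day 0, the QKO count was 0 without any 1 of the 4 TKO or 4 QKO libraries of those days and 2 without either WT library of day 0, and the WT count was 2 without WT day 1 replicate 1, 1 without WT day 1 replicate 2 and 8 without WT day 2 replicate 1.

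Because these genes fall together, the stretch before their start sites was searched for the letters that E2F factors bind. RefSeq promoter sequences (build GRCm38.p6) were at hand for 32 of the 39 genes. The 8-letter E2F forms TTTCCCGC, TTTCGCGC, TTTGCCGC and TTTGGCGC were sought on both strands in the 250 bases before each start site. A match was found in 8 of the 32 genes, or 25.0%, and in 2.16% of the 27025 genes with a promoter sequence. The CCAAT box was found on either strand in 20 of the 32 genes, 62.5%, against 37.5% of all genes. The 60 bases around the matches of those 8 genes follow, 5′ to 3′ on the gene's strand, with each E2F match in capitals to show where in the promoter letters of each gene the searched forms stand.
Mcm6, chr1:128359780-128359839, minus strand: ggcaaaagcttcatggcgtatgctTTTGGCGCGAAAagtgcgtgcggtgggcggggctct
Orc1, chr4:108579394-108579453, plus strand: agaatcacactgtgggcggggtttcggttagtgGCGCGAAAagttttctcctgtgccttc
Mcm7, chr5:138172015-138172074, minus strand: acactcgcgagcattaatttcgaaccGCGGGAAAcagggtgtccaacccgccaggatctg
Rfc3, chr5:151651209-151651268, minus strand: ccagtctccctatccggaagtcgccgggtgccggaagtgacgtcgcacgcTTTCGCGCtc
Mcm5, chr8:75109332-75109391, plus strand: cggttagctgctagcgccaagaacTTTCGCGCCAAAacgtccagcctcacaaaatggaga
Cdc6, chr11:98907987-98908046, plus strand: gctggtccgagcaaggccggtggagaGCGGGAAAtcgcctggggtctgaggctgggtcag
Uhrf1, chr17:56304102-56304161, plus strand: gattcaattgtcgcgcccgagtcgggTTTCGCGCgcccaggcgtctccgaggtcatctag
Pola1, chrX:93632260-93632319, minus strand: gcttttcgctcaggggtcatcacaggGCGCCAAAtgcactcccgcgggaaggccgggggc
In Mcm5 and Mcm6 a match on each strand overlaps the other, which gives 1 longer run of capitals. Mcm6 has another match nearer its start site that lies outside the stretch printed. The median log2 change in WT at day 2 against day 0 was -3.60 over the 8 genes with a match and -2.96 over the 24 without; in QKO against WT at day 0 these medians were -0.78 and -0.85. A match is a run of letters, and binding was not measured.

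The second question was how the mutants differed from WT. In the expanding cells at day 0 the replication genes were lower in QKO than in WT, and less so in TKO. In TKO 12 of the 39 genes were lower (10.2% of all genes were lower) and 0 were higher (12.8% of all genes were higher). In QKO 29 of the 39 were lower (18.1% of all genes) and 0 were higher (17.3%). None was higher in either mutant at an unadjusted p under 0.05 or by voom on recovered reads. The median log2 difference of the members from WT was -0.41 in TKO and -0.80 in QKO, beside 0.01 and -0.01 over all 11890 genes. Both TKO libraries were below both WT libraries for 27 members (28.9% of all genes), and both QKO libraries were below both WT libraries for 37 members (29.6% of all genes). The mean of log2(RPKM + 1) over the 39 genes was 4.90 and 4.65 in the TKO libraries and 4.14 and 4.50 in the QKO libraries, against 5.10 and 5.14 in the WT libraries. On this scale no mutant library reached WT. As a share of all RPKM in a library this did not hold for TKO. WT replicate 2, with its raised RPKM total, stood at 0.349%, under both TKO libraries (0.426% and 0.351%) and above both QKO libraries (0.238% and 0.332%).

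These counts depend on few libraries. The TKO count was 6 without TKO day 0 replicate 1, 0 without TKO day 0 replicate 2 and 1 without WT day 0 replicate 2, and it was 5 and 7 with pseudocounts of 0.1 and 0.5; the QKO count was 14 without QKO day 0 replicate 1. With only the 4 libraries of a comparison in the fit, 0 members were called in TKO and 4 in QKO.

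**Figure D3:**
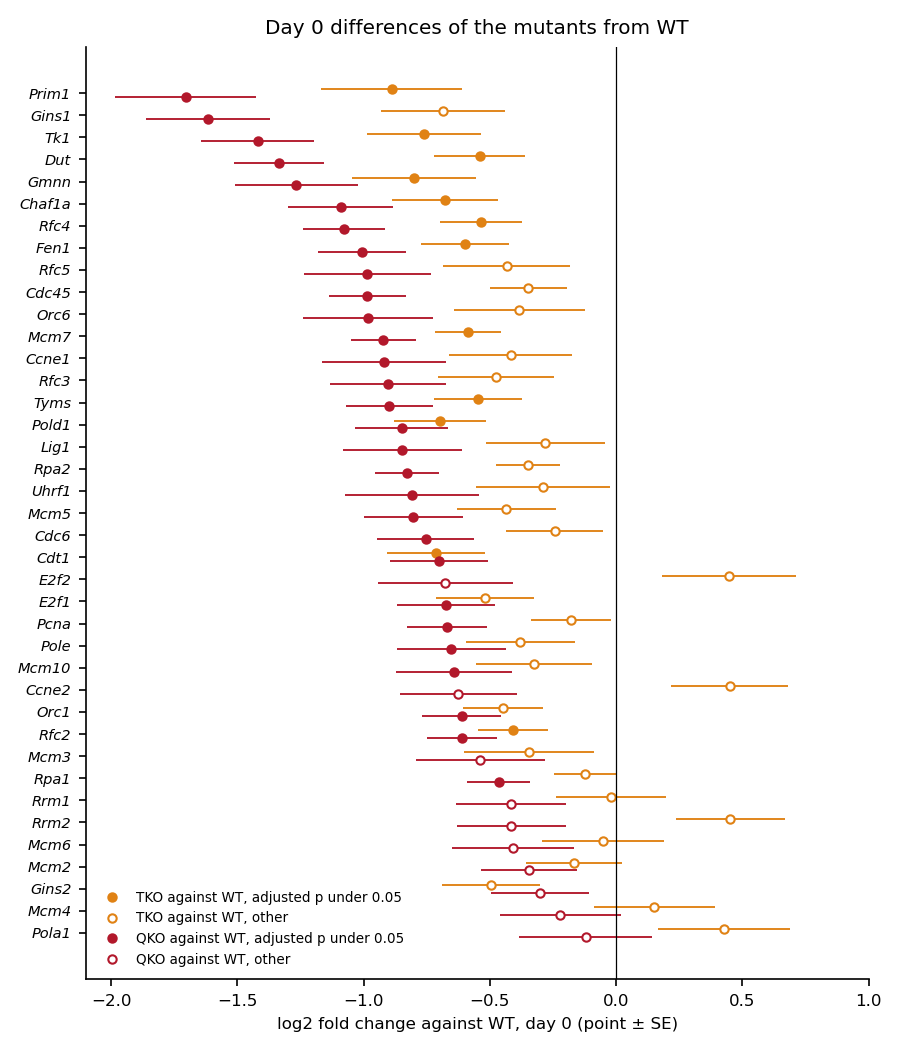
log2 fold change of each gene in TKO (orange) and QKO (red) against WT at day 0, with its standard error, ordered by the QKO value. Filled points passed the test: 12 genes in TKO and 29 in QKO, all on the lower side.

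By role, 6 of 6 licensing genes were lower in QKO and 2 of 6 in TKO. Beside the counts of this and the other roles, 18.1% of all genes were lower in QKO and 10.2% in TKO. Gmnn, or geminin, which keeps CDT1 from loading new helicases, had 21.0 and 18.6 RPKM in TKO and 11.7 and 16.8 RPKM in QKO, against 31.2 and 39.6 RPKM in WT. The mutant libraries did not overlap WT, and the log2 difference was -0.80 ± 0.24, adjusted p = 0.032 in TKO and -1.27 ± 0.24, adjusted p = 0.0019 in QKO. Cdt1, whose day 0 values stand with the day series, differed from WT by -0.71 ± 0.19, adjusted p = 0.019 in TKO and -0.70 ± 0.19, adjusted p = 0.014 in QKO. The helicase ring had few calls: in QKO Mcm5 and Mcm7 were lower, while Mcm2, Mcm3, Mcm4 and Mcm6 did not pass, with differences of -0.35, -0.54, -0.22 and -0.41. Mcm7 alone of the ring was lower in TKO, at -0.59 ± 0.13, adjusted p = 0.0055, and it was lower in QKO by 0.92 (SE 0.13, adjusted p = 0.00024).

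Gins1, a subunit of the GINS complex, had 11.1 and 7.92 RPKM in TKO and 3.73 and 5.24 RPKM in QKO, against 11.8 and 20.7 RPKM in WT. Both QKO libraries were below all others, and the TKO libraries were below both WT libraries. The difference from WT was -1.62 ± 0.25, adjusted p = 0.00041 in QKO and -0.68 ± 0.25, adjusted p = 0.059 in TKO, where it did not pass. Cdc45 was lower in QKO, at -0.99 ± 0.15, adjusted p = 0.00049, and did not pass in TKO, at -0.35 ± 0.15, adjusted p = 0.11. The clamp and all 4 loader subunits were lower in QKO, 5 of 5 genes, and 2 of 5, Rfc2 and Rfc4, were lower in TKO. Pcna differed from WT by -0.67 ± 0.16, adjusted p = 0.0061 in QKO and by -0.18 ± 0.16, adjusted p = 0.42 in TKO, which did not pass. Rpa1 and Rpa2 were both lower in QKO, Rpa1 at -0.47 ± 0.12, adjusted p = 0.011, and neither passed in TKO.

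On the log2(RPKM + 1) scale Prim1 was the furthest below WT of all members in both mutants, -0.89 ± 0.28, adjusted p = 0.037 in TKO and -1.71 ± 0.28, adjusted p = 0.00069 in QKO. The DNA polymerase delta catalytic gene Pold1 was also lower in both, and the polymerase epsilon gene Pole only passed in QKO. Pola1, which encodes the polymerase that extends the primers, had 12.4 and 9.83 RPKM in TKO and 5.28 and 9.79 RPKM in QKO, against 11.2 and 5.60 RPKM in WT; the WT libraries lie far apart, and no difference passed. Fen1 differed from WT by -0.60 ± 0.17, adjusted p = 0.026 in TKO and -1.01 ± 0.17, adjusted p = 0.00099 in QKO, and DNA ligase 1, Lig1, passed in QKO only. A call in one mutant and not in the other does not show that the mutants differ.

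Of the nucleotide supply genes, Tk1, Tyms, which makes thymidylate, and Dut, which removes dUTP, were lower in both mutants. Tk1 had 39.3 and 33.6 RPKM in TKO and 20.2 and 25.4 RPKM in QKO, against 50.7 and 76.5 RPKM in WT. No mutant library reached WT, and the difference was -0.76 ± 0.22, adjusted p = 0.027 in TKO and -1.42 ± 0.22, adjusted p = 0.00054 in QKO. Rrm2 was level in the second QKO and the second WT library, and its difference from WT was 0.45 ± 0.22, adjusted p = 0.14 in TKO and -0.42 ± 0.22, adjusted p = 0.15 in QKO, neither past the threshold. Rrm1 did not pass in either mutant. Ccne1 was lower in QKO at -0.92 ± 0.24, adjusted p = 0.011, and in TKO its difference of -0.42 ± 0.24, adjusted p = 0.22 did not pass. Uhrf1 and Chaf1a, a subunit of the histone chaperone CAF-1, were lower in QKO, and Chaf1a also in TKO.

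QKO and TKO were also set against each other, the comparison that adds the Dmwd mutation. At day 0, 5 members were lower in QKO than in TKO (1.23% of all genes) and 0 were higher (1.53%). They were E2f2, Ccne2, Rrm2, Dut and Cdc45, and the median log2 difference of the 39 was -0.42, beside -0.03 over all genes. Ccne2, the other cyclin E, had 5.41 and 11.7 RPKM in QKO, against 20.2 and 16.1 RPKM in TKO. The difference was -1.08 ± 0.23, adjusted p = 0.027, and for E2f2 it was -1.12 ± 0.27, adjusted p = 0.041. Dut had 17.7 and 17.5 RPKM in QKO, against 34.2 and 28.4 RPKM in TKO, with a difference of -0.79 ± 0.18, adjusted p = 0.033. In each of these 3 genes both QKO libraries were below both TKO libraries. The count was 0 without TKO day 0 replicate 1, TKO day 0 replicate 2 or QKO day 0 replicate 1, 8 without either WT day 0 library, and 1 to 3 without any 1 of the TKO or QKO libraries of day 1 and day 2 or the WT libraries of day 1. It was also 0 with only the 4 libraries compared or with a pseudocount of 0.1.

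The 2 libraries of each mutant differed from each other at day 0. TKO replicate 1 was above replicate 2 in 38 of 39 members, and QKO replicate 1 was below replicate 2 in 33 of 39, where 51.4% and 53.9% of all genes tested were higher in replicate 1. In WT 18 of 39 members were higher in replicate 1. The proliferation marker Mki67 showed the same split in QKO, with 21.1 RPKM in replicate 1 and 62.5 RPKM in replicate 2, beside 55.0 and 45.1 RPKM in TKO and 47.9 and 43.4 RPKM in WT. In each mutant the library with the lower replication genes had the higher muscle genes: the mean of log2(RPKM + 1) over 7 muscle differentiation genes was 8.30 and 8.97 for the TKO libraries, 8.32 and 7.85 for the QKO libraries, against 6.80 and 6.40 in WT. Such splits were not confined to the mutants. In WT replicate 1 was above replicate 2 in 33 of 39 members at day 1 and in 34 of 39 at day 2. Of all genes tested, 43.0% and 52.5% were higher in WT replicate 1 on those days.

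**Figure D4:**
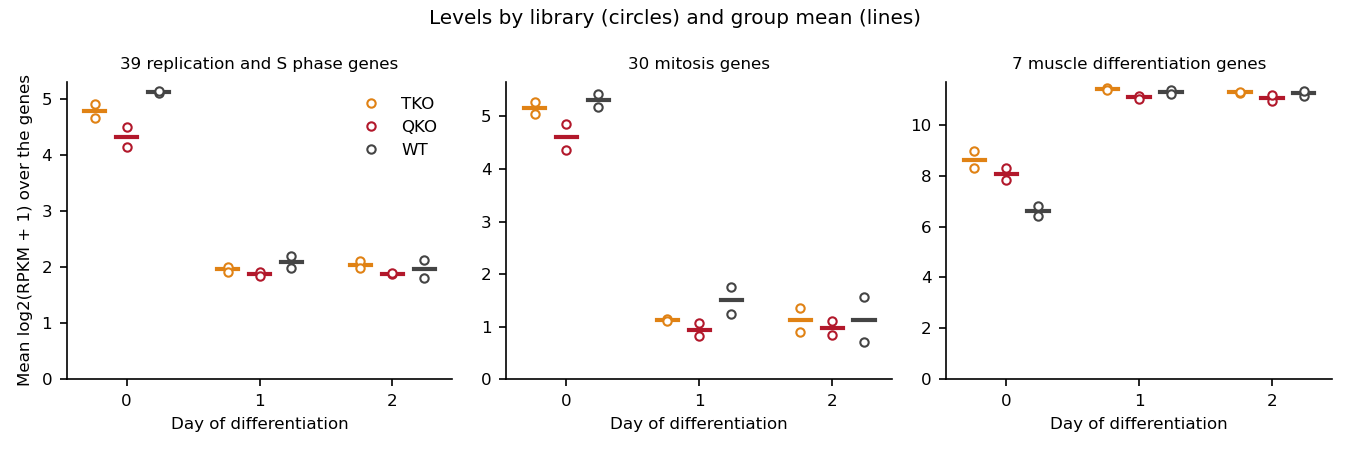
Mean log2(RPKM + 1) per library (circles) and per group (lines) over the 39 replication genes (left), 30 mitosis genes (middle) and 7 muscle differentiation genes (right), by day, with TKO, QKO and WT side by side. At day 0 the replication genes are lowest in QKO (4.14 and 4.50) and the muscle genes lowest in WT (6.80 and 6.40). At day 1 and day 2 the genotypes lie closer together in the left and right panels. In the middle panel at day 1 both WT libraries (1.76 and 1.24) lie above those of TKO (1.14 and 1.11) and QKO (1.06 and 0.81).

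Genes of muscle differentiation were higher in both mutants at day 0, beside the lower replication genes. All 7 on the list were higher in TKO (12.8% of all genes) and 6 of 7 in QKO (17.3% of all genes). Their RPKM summed to 3422 to 4981 in TKO and 2528 to 3929 in QKO, against 927 to 1236 in WT. Myog, which commits myoblasts to fusion, had 719 and 1085 RPKM in TKO and 775 and 566 RPKM in QKO, against 214 and 182 RPKM in WT. The cyclin kinase inhibitor Cdkn1a had 296 and 421 RPKM in TKO and 451 and 365 RPKM in QKO, against 238 and 192 RPKM in WT. Neither gene overlapped between a mutant and WT, and Cdkn1a differed by 0.72 ± 0.19, adjusted p = 0.017 in TKO and 0.92 ± 0.19, adjusted p = 0.003 in QKO. Of the 8 MuSC and myoblast markers, 0 were called lower in either mutant. They summed to 1931 to 2173 RPKM in TKO and 1943 to 2214 RPKM in QKO, against 1192 to 1265 RPKM in WT. Of these 8, 3 were called higher in TKO (Myf5, Myod1 and Des) and 3 in QKO (Myod1, Des and Vcam1), with a median log2 difference of 0.33 in TKO and 0.64 in QKO. A higher sum does not show that the markers were kept. In WT it rose to 2180 to 2529 RPKM at day 2, where 3 of the 8 were called lower and 2 higher (41.7% and 24.9% of all genes). The stem cell factor Pax7, another of the 8, had 24.9 and 20.8 RPKM in TKO and 26.9 and 26.7 RPKM in QKO, against 27.6 and 11.7 RPKM in WT, with each mutant inside the range of WT. The fibroblast genes Thy1 and Col3a1 were also higher in both mutants, Col3a1 with 84.6 and 85.4 RPKM in TKO and 82.8 and 112 RPKM in QKO, against 32.3 and 32.7 RPKM in WT. The part of these other genes in the lower replication genes was not tested. QKO had lower replication genes than TKO by the medians above, while the median difference of the 7 muscle genes between QKO and TKO was -0.42, with 0 of 7 called by limma or voom and 3 lower at an unadjusted p under 0.05.

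Short members were further below WT than long ones at day 0. Across the 39 genes the Spearman correlation of gene length with the log2 difference from WT was 0.52 in TKO and 0.48 in QKO, and that with the difference between the 2 WT libraries was 0.72. All of these values share the WT libraries, and the genes are not independent. In QKO the median difference was -0.98 over 13 genes under 2000 bases and -0.68 over 26 longer genes; in TKO the medians were -0.48 and -0.34. Once the trend with length was removed in each library, the correlation was 0.09 in TKO and 0.07 in QKO, 10 members were lower in TKO and 31 in QKO. Without WT day 0 replicate 2 the correlation was 0.09 in TKO and 0.22 in QKO, and the number lower in QKO was 22.

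**Figure D5:**
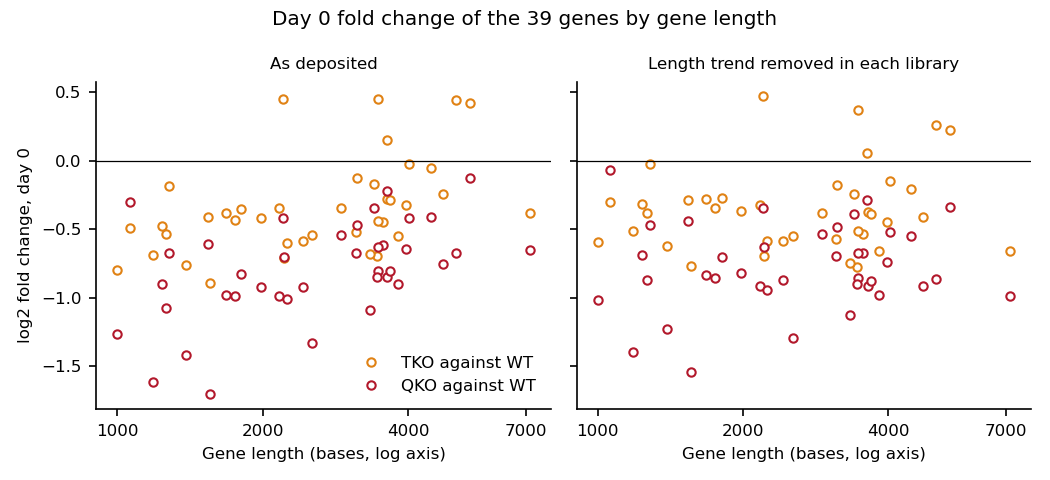
log2 fold change of each of the 39 genes in TKO (orange) and QKO (red) against WT at day 0, by gene length in bases on a log axis, with the values as deposited (left) and after the length trend was removed in each library (right). The upward drift with length on the left (Spearman 0.52 in TKO and 0.48 in QKO) is 0.09 and 0.07 on the right, and most points stay below 0.

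Once the cells differentiated, few differences from WT passed. At day 1, 1 member was lower in TKO than in WT (2.08% of all genes in either direction): Ccne1, with 2.48 and 3.16 RPKM in TKO, against 7.69 and 6.57 RPKM in WT, a difference of -1.09 ± 0.24, adjusted p = 0.038. The libraries do not overlap, yet the call was lost in 12 of the 18 fits that left out 1 library, among them those without any 1 of the 4 libraries compared. In QKO 0 members were called at day 1 (2.76% of all genes), and 8 had an unadjusted p under 0.05; voom on recovered reads called 0. Without either WT library of day 0 or either WT library of day 2 the QKO count was 2. At day 2, 0 members were called in TKO (0.109% of all genes) and 0 in QKO (0.345%), with 2 and 1 members at an unadjusted p under 0.05 and 0 called by voom in either. The median log2 difference of the 39 genes at day 2 was 0.07 in TKO and -0.09 in QKO, beside 0.03 and -0.09 over all genes.

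Between the mutants, 0 members were called at day 1 (0.252% of all genes), where 2 had an unadjusted p under 0.05 and voom called 0. At day 2, 1 was called (0.740% of all genes). It was Rpa2, the middle subunit of the single-strand binding protein, with 6.48 and 6.05 RPKM in QKO, against 10.7 and 11.7 RPKM in TKO, a difference of -0.75 ± 0.13, adjusted p = 0.021. The libraries do not overlap, but without any 1 of these 4 libraries the call was lost, and voom called 0.

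Whether the fall itself differed between a mutant and WT was tested with the difference of the changes. Here a positive value is a smaller fall in the mutant. Each value is the later difference from WT less the day 0 difference, so it is not independent of the day 0 result. In TKO 5 members were called for day 1 against day 0 (9.34% of all genes) and 3 for day 2 against day 0 (8.52%). In QKO 9 were called for day 1 (11.0%) and 12 for day 2 (12.7%), and all of these were positive. The shares of all genes are for calls in either direction, and the TKO counts are near them. Of the 11890 genes tested, 438 were called positive in TKO for day 1 and 407 for day 2. In QKO 572 were called positive for day 1 and 509 for day 2. The median of the 39 was 0.50 in TKO and 0.68 in QKO for day 2, beside 0.03 and -0.08 over all genes. In TKO 4 of the 5 were positive for day 1, and Rrm2 was the negative one. Mcm7 was called in all 4 of these contrasts. For QKO at day 2 its value was 1.09 ± 0.18, adjusted p = 0.0024, where its log2 change was -2.93 in QKO and -4.02 in WT. Its levels after day 0 were 8.16 to 9.88 RPKM in TKO and 7.59 to 7.86 RPKM in QKO, against 6.54 to 7.85 RPKM in WT, and both mutants were below WT at day 0. The counts moved when 1 library was left out. The TKO day 1 count was 12 without WT day 0 replicate 1, 0 without WT day 1 replicate 1 or TKO day 0 replicate 2, 1 without WT day 1 replicate 2 or either TKO library of day 1, 2 without WT day 0 replicate 2 or either QKO library of day 2, and 3 without TKO day 0 replicate 1 or either QKO library of day 1. The TKO day 2 count was 12 without WT day 0 replicate 1 and 1 without WT day 0 replicate 2, WT day 2 replicate 2, TKO day 0 replicate 2 or any 1 of the 4 later TKO libraries. The QKO day 1 count was 4 without WT day 1 replicate 1 and 5 without WT day 1 replicate 2 or either QKO library of day 1. The QKO day 2 count was 2 without QKO day 0 replicate 1, 4 without WT day 0 replicate 2, WT day 2 replicate 2 or QKO day 2 replicate 1, and 6 without QKO day 2 replicate 2. By voom on recovered reads TKO had 1 called at day 1 and 1 at day 2, and QKO had 3 at day 1 and 3 at day 2. With only the libraries compared in the fit, 1 was called at day 1 and 0 at day 2 for each mutant.

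Other genes of the pathway moved much as the members did. Of 54 further replication genes, 52 were lower at day 2 than at day 0 in WT, with a median log2 change of -2.28, and 50 were lower in TKO and 50 in QKO. Over all genes 41.7% fell in WT, 38.2% in TKO and 42.9% in QKO. The PCNA partner 2810417H13Rik (now Pclaf) changed by -4.72 ± 0.35 and the CAF-1 subunit Chaf1b by -4.38 ± 0.22 in WT. At day 0, 10 of the 54 were lower in TKO (10.2% of all genes) and 37 in QKO (18.1% of all genes) than in WT. Recql4, a helicase needed to start replication, had 3.44 and 2.30 RPKM in TKO and 1.47 and 2.28 RPKM in QKO, against 5.65 and 7.60 RPKM in WT, without overlap. Pold4, the small accessory subunit of DNA polymerase delta, went the other way, with 19.7 and 24.7 RPKM in TKO and 47.5 and 19.6 RPKM in QKO, against 7.13 and 12.1 RPKM in WT. It was the 1 gene of the list that was higher in each mutant, at 1.16 ± 0.36, adjusted p = 0.034 in TKO and 1.61 ± 0.36, adjusted p = 0.0044 in QKO, and the 1 that rose in WT at day 2. Rnaseh2c, a subunit of the enzyme that removes RNA from DNA, had the largest fall of the list in TKO, -1.17 ± 0.29, adjusted p = 0.012, and its WT libraries stood at 39.2 and 88.6 RPKM.

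Of 16 E2F, pocket protein and S phase control genes, 11 fell and 3 rose in WT at day 2 against day 0 (41.7% of all genes fell and 24.9% rose). Fbxo5, which restrains the anaphase-promoting complex in S phase, changed by -4.63 and cyclin A2, Ccna2, by -4.36. The retinoblastoma gene Rb1 rose, with 53.8 and 45.2 RPKM at day 2, against 15.9 and 8.40 RPKM at day 0 in WT. At day 0 Rb1 was the only gene of the list called in TKO, 0.89 ± 0.21, adjusted p = 0.0083, and in QKO 3 were lower and 1 higher, shares near or under those of all genes (18.1% lower and 17.3% higher). The largest difference was that of Fbxo5 at -1.44 ± 0.28, adjusted p = 0.002; Tfdp1, the partner of the E2F factors, was lower at -0.73 ± 0.14, adjusted p = 0.0016.

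All 30 mitosis genes fell in every genotype at day 2 against day 0, with a WT median of -4.29 and the largest WT changes in Cdc20 (-5.27) and Top2a (-5.10). Over all genes 38.2% fell in TKO, 42.9% in QKO and 41.7% in WT. At day 0, 0 of the 30 were called by limma in TKO (10.2% of all genes were lower and 12.8% higher). There 3 had an unadjusted p under 0.05 and voom called 1. In QKO 12 of the 30 were lower (18.1% of all genes). The medians were -0.12 in TKO and -0.64 in QKO. Cdk1, the mitotic kinase, had 50.3 and 40.5 RPKM in TKO and 25.5 and 27.3 RPKM in QKO, against 66.9 and 83.2 RPKM in WT. Its difference from WT was -1.46 ± 0.27, adjusted p = 0.0015 in QKO and -0.71 ± 0.27, adjusted p = 0.073 in TKO, and Nuf2, a kinetochore gene, changed by -1.42 ± 0.35, adjusted p = 0.0077 in QKO. At day 1 the median difference of the 30 mitosis genes from WT was -0.363 in TKO and -0.575 in QKO. There 0 of the 30 were called in either mutant (2.08% and 2.76% of all genes in either direction). Among 10 CDK inhibitors and D-cyclins, Ccnd1 fell by 5.33 and Cdkn1c rose by 3.68 on the log2 scale in WT at day 2. Cdkn1c was higher in TKO at day 0, with 15.0 and 34.0 RPKM in TKO and 5.54 and 4.70 RPKM in QKO, against 6.16 and 4.50 RPKM in WT. Cdkn2c and Cdkn1a were also higher in TKO, and Cdkn1a and Ccnd3 were higher in QKO. These were 3 of the 10 in TKO (12.8% of all genes) and 2 of the 10 in QKO (17.3% of all genes).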

How the data were processed

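Total RNA was extracted with TRIZOL, made into libraries with a TruSeq kit and sequenced on an Illumina HiSeq X machine. Per the study's methods and the labels, the authors aligned reads to the protein-coding genes of GRCm38.p5 with HISAT2 2.0.5, quantified them with StringTie (its version is not given in the sources used here) and deposited RPKM values, normalized for gene length and depth; strand and multi-mapped reads are not given in the sources used here, so overlapping genes and near-identical copies cannot be told apart. Of 22013 rows, 1401 repeats of a symbol were left out, with the row of the highest mean kept.

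Genes with at least 1 RPKM in 2 libraries were tested (11890) with limma 3.58.1 in R 4.3.3 on log2(RPKM + 1) over 9 group means, with a mean trend and robust variances, 22 contrasts each adjusted by Benjamini-Hochberg at 0.05. A fold change on this scale understates that of genes with low values. All 39 members passed the filter; 29 would pass in every group by 1 library. Values were taken as whole multiples of 1 read, and whole reads, lengths and depths were recovered for 16543 of 16548 rows. The tolerance was 0.02 reads plus the rounding of the deposited values, at most 0.25 reads, and 29 of 300 rows moved at random also came out whole. Of recovered values of 1 to 20 reads, 63.5% were even, so the size of the unit is not certain. Use of limma's voom on these reads, with median-ratio library sizes, was an alternative. The others were no filter or a stricter one (mean RPKM at or over 5), pseudocounts of 0.5 and 0.1, quantile and median-ratio scaling, no trend, a replicate block, a replicate block within genotype (added after the data were seen, since same-numbered TKO libraries deviated together across days), fits of only the libraries compared, removal of each library's length trend (loess, span 0.5) and leaving out each of the 18 libraries. The fit was tested on simulated data. Members and gene lists were chosen with earlier results of these data known. Named were the member with the highest mean RPKM of each role, up to 3 members with the largest called change per comparison, every member in counts of 5 or fewer, and from the other lists the 2 called genes with the largest change. Figures were drawn with Matplotlib 3.10.9 in Python 3.11.15.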

Additional observations from a re-analysis of the deposited data

Results flagged for a closer look

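The fall from day 0 differed between a mutant and WT, by limma's test of the difference of the changes, in 5 of 39 members for TKO at day 1 (9.34% of all genes), 3 for TKO at day 2 (8.52%), 9 for QKO at day 1 (11.0%) and 12 for QKO at day 2 (12.7%). These shares are for calls in either direction, and the TKO counts are near them. All 4 contrasts use the same WT libraries of day 0. Each value is the later difference from WT less that at day 0. At day 2 the median difference of the members from WT was 0.07 in TKO and -0.09 in QKO, against -0.41 and -0.80 at day 0. The day 2 values therefore largely restate the day 0 differences with the sign reversed. For TKO at day 1 the members with the largest values were Prim1 (1.37 ± 0.40, adjusted p = 0.046), Rrm2 (-1.08 ± 0.30, adjusted p = 0.041) and Rfc4 (0.79 ± 0.23, adjusted p = 0.044). For TKO at day 2 they were Mcm7 (0.99 ± 0.18, adjusted p = 0.0038), Pold1 (0.90 ± 0.26, adjusted p = 0.048) and Rpa2 (0.68 ± 0.18, adjusted p = 0.033). For QKO at day 1 they were Gins1 (1.68 ± 0.35, adjusted p = 0.0091), Prim1 (1.35 ± 0.40, adjusted p = 0.045) and Tyms (1.28 ± 0.24, adjusted p = 0.0058). For QKO at day 2 they were Prim1 (1.55 ± 0.40, adjusted p = 0.023), Gins1 (1.41 ± 0.35, adjusted p = 0.019) and Tk1 (1.31 ± 0.32, adjusted p = 0.017).

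The changes behind these values are as follows. At day 2 against day 0, Prim1 changed by -2.22 in QKO, against -3.78 in WT, Gins1 by -1.87 in QKO, against -3.28 in WT, and Tk1 by -3.45 in QKO, against -4.76 in WT. Rrm2 was the single negative value: at day 1 against day 0 it changed by -3.27 in TKO, against -2.19 in WT. With the replicate number as a block within each genotype the calls of Rfc4 for TKO at day 1 and of Pold1 for TKO at day 2 were lost. In groups of 2 libraries, 1 library far from the others cannot be told from the other one.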

How the results depend on the processing

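The calls that 38 genes fell with differentiation held under every alternative that tested them (32 of 33 genes were lower with a mean RPKM of at least 5), and the calls between genotypes did not. Counts are members called, out of 39. Apart from fits of only the libraries compared and those that left out 1 library, the alternatives gave 24 to 31 for QKO against WT day 0. For TKO against WT day 0 they gave 5 to 13. With a pseudocount of 0.1 the count was 5 for TKO against WT day 0, 0 for QKO against TKO day 0, 1 for QKO against WT day 1, 3 for TKO change at day 1 against WT and 3 for QKO change at day 2 against WT. With a pseudocount of 0.5 the count was 7 for TKO against WT day 0, 2 for QKO against TKO day 0, 1 for QKO against WT day 1 and 3 for TKO change at day 1 against WT. With only the libraries compared in the fit the count was 0 for TKO against WT day 0, 4 for QKO against WT day 0, 0 for QKO against TKO day 0, 2 for QKO against WT day 1, 0 for QKO against TKO day 2, 8 for TKO day 2 against day 1, 0 for QKO day 2 against day 1, 1 for WT day 2 against day 1, 1 for TKO change at day 1 against WT, 0 for TKO change at day 2 against WT, 1 for QKO change at day 1 against WT and 0 for QKO change at day 2 against WT. With genes of a mean RPKM of at least 5 the count was 1 for QKO against TKO day 0, 0 for TKO against WT day 1 and 3 for TKO change at day 1 against WT. After median-ratio scaling the count was 3 for QKO against TKO day 0, 0 for QKO against TKO day 2, 1 for TKO day 2 against day 1 and 1 for TKO change at day 2 against WT. With the replicate number as a block the count was 2 for QKO against TKO day 0. With voom on recovered reads the count was 3 for QKO against TKO day 0, 0 for TKO against WT day 1, 0 for QKO against TKO day 2, 1 for TKO day 2 against day 1, 3 for WT day 2 against day 1, 1 for TKO change at day 1 against WT, 1 for TKO change at day 2 against WT, 3 for QKO change at day 1 against WT and 3 for QKO change at day 2 against WT. With no filter the count was 0 for TKO against WT day 1, 0 for QKO day 2 against day 1 and 3 for TKO change at day 1 against WT. After quantile normalization the count was 1 for QKO against WT day 1, 0 for QKO against TKO day 2, 1 for TKO day 2 against day 1 and 1 for TKO change at day 1 against WT. After the length trend was removed the count was 0 for QKO against TKO day 2, 2 for QKO day 2 against day 1 and 8 for WT day 2 against day 1. With the replicate number as a block within each genotype the count was 1 for TKO day 2 against day 1.

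Leaving out 1 library at a time, with a lone library assumed to vary like the others, the count ran over 0 to 17 for TKO against WT day 0, 14 to 31 for QKO against WT day 0, 0 to 8 for QKO against TKO day 0, 0 to 1 for TKO against WT day 1, 0 to 2 for QKO against WT day 1, 0 to 1 for QKO against TKO day 2, 0 to 4 for TKO day 2 against day 1, 0 to 2 for QKO day 2 against day 1, 1 to 8 for WT day 2 against day 1, 0 to 12 for TKO change at day 1 against WT, 1 to 12 for TKO change at day 2 against WT, 4 to 13 for QKO change at day 1 against WT and 2 to 16 for QKO change at day 2 against WT. It stayed at 38 or 39 for day 1 and day 2 against day 0 in every genotype, and at 0 for QKO against TKO day 1 and both mutants against WT day 2.

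The difference in mean log2 level of the members moved over -0.46 to -0.21 for TKO minus WT day 0, -0.97 to -0.62 for QKO minus WT day 0, -0.24 to -0.035 for TKO minus WT day 1, -0.33 to -0.12 for QKO minus WT day 1, -0.076 to 0.24 for TKO minus WT day 2, -0.24 to 0.080 for QKO minus WT day 2, -2.86 to -2.61 for TKO day 2 minus day 0, -2.62 to -2.27 for QKO day 2 minus day 0 and -3.32 to -3.00 for WT day 2 minus day 0 when 1 library was left out. With the median over members in place of the mean it was -0.50 for TKO minus WT day 0, -0.99 for QKO minus WT day 0, -2.93 for TKO day 2 minus day 0, -2.69 for QKO day 2 minus day 0 and -3.58 for WT day 2 minus day 0. With a pseudocount 0.1 it was -0.33 for QKO minus WT day 1, -3.22 for TKO day 2 minus day 0, -2.98 for QKO day 2 minus day 0 and -3.71 for WT day 2 minus day 0.

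Groups share the replicate numbers 1 and 2, but the labels give them no shared animal or day, and the deviations of same-numbered libraries correlated at -0.39 to 0.24 over 27 pairs of groups of different genotypes, so the numbers were not taken as pairs across genotypes. Between days of 1 genotype they correlated at 0.20 to 0.44 in TKO, -0.08 to 0.55 in QKO and 0.06 to 0.13 in WT, with all 3 pairs of days over 0.1 in TKO and 1 of 3 in QKO and in WT. A block within each genotype was therefore added after the data were seen, for changes between days and their differences: the count of members called was 4 for TKO change at day 1 against WT, 2 for TKO change at day 2, 8 for QKO change at day 1 and 11 for QKO change at day 2, and 38 or 39 for each day against day 0. With the replicate number as a block, 11 members were called for TKO against WT day 0, 29 for QKO against WT day 0 and 2 for QKO against TKO day 0, and other counts stayed within 1.5 times. Of calls on single members, 249 were lost and 54 gained over the other alternatives, 376 were lost and 87 gained over the fits that left out 1 library, and 0 changed direction. The share of members with an E2F match was 18.8% and with a CCAAT box 56.2% in the 150 bases before the start site. The lowest value of a member rests on 21 recovered reads, Gins1 in a TKO library of day 1. The size of the unit is not certain, and whether depth limits such low values was not tested. With 2 libraries a group, spread limits the members.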

Other observations

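As a share of all RPKM in a library, the 39 genes together made up 0.426% and 0.351% of the TKO libraries and 0.238% and 0.332% of the QKO libraries at day 0, against 0.457% and 0.349% in WT. By this share WT replicate 2 lay just under both TKO libraries and above both QKO libraries, and it is the library with the raised RPKM total. At day 1 and day 2 the share was 0.043% to 0.065% in every library. Of the 39 genes, 21 were at 1 RPKM or more in all 18 libraries, and 29 in at least 1 library of every group.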
